A study of Homo sapiens with 6 samples.

Results

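Laminin chains and integrin subunits were taken as the genes whose symbol names a laminin alpha, beta or gamma chain or one of the listed integrin alpha or beta subunits, which gave 37 of the 58735 genes in the files, 12 laminin and 25 integrin genes. Laminins are secreted proteins of 1 alpha, 1 beta and 1 gamma chain that form the sheet-like base of the basement membrane. Integrins are surface receptors of 1 alpha and 1 beta subunit. The pair decides the ligand, so that some integrins bind laminins, others fibronectin, vitronectin, collagens or the surface of other cells. Inside the cell their tails connect, through adaptors such as talin and kindlins, to the actin cytoskeleton. In melanoma, integrins and the matrix they hold are studied mainly for adhesion and invasion.

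The samples were 3 libraries of MUM2B cells stably overexpressing LACTB and 3 libraries of MUM2B cells stably carrying an empty vector, grown in the same serum-containing medium. LACTB is a mitochondrial serine protease-like protein. MUM2B is given by the labels as a human melanoma line, and the sources used here do not say whether the stable cells were a clone or a pool, or whether replicates came from separate cultures, so a p-value here speaks only of differences between libraries, which may be technical. The comparison asks which of the matrix and adhesion genes differ in RNA level when LACTB is raised.

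LACTB itself stood at 168 ± 6.28 FPKM in the LACTB libraries and 3.97 ± 0.675 FPKM in the empty vector libraries (SD, n = 3 each). FPKM counts fragments per exon length and sequencing depth, so levels of different genes can be compared per length. Each library held 16978799 to 18395631 reads in genes. Empty vector replicate 3 stood apart from its group: a chi-square comparison of read counts gave 12.0 and 12.4 per degree of freedom against the other empty vector libraries, and 2.02 to 4.87 for the remaining pairs within a group. Genes of the mitochondrial genome took 3.61% of its reads, against 4.65% to 5.62% in the other 5 libraries. All 8 melanocyte markers looked at (among them MLANA, PMEL, TYR and SOX10) lay under 1 FPKM in every library, the highest being MITF at up to 0.923 FPKM. The same held for all 8 fibroblast markers and all 9 leukocyte markers. It also held for 5 of 8 epithelial markers and 6 of 8 endothelial markers. The remaining epithelial genes KRT8, KRT18 and CLDN4 and the remaining endothelial genes CDH5 and TIE1 were above 1 FPKM. Summed over its list, the melanocyte level was 1.70 to 2.13 FPKM with LACTB and 1.26 to 1.34 FPKM with empty vector, the endothelial level 48.4 to 52.3 FPKM with LACTB and 82.6 to 89.5 FPKM with empty vector, and the epithelial level 311 to 318 FPKM with LACTB and 345 to 357 FPKM with empty vector. The endothelial difference lay in CDH5, at 13.4 to 14.2 FPKM with LACTB and 46.9 to 51.6 FPKM with empty vector, while TIE1 overlapped at 34.2 to 37.5 FPKM with LACTB and 34.8 to 37.2 FPKM with empty vector. CLDN4 went against the epithelial sum, at 6.65 to 7.86 FPKM with LACTB and 4.52 to 5.01 FPKM with empty vector. These sums differed between the groups, and their part in the results that follow was not tested. The label of a melanoma line was therefore not borne out by pigment-cell genes at the RNA level, and the cells are called MUM2B here.

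Of the 36 genes described here, 16 averaged 1 FPKM or more across all 6 libraries and were tested. In the LACTB libraries 2 laminin genes rose and 0 fell, while 4 integrin genes fell and 1 rose. The laminin genes that rose were LAMB3 and LAMB2, the integrin genes that fell were ITGB5, ITGAV, ITGA6 and ITGB1, and the integrin gene that rose was ITGB2. Calls were made by limma at a p under 0.05 after Benjamini-Hochberg adjustment over all tested genes. By the same rule 14.8% of the 11875 tested genes rose and 17.2% fell, 32.0% in either direction, which is the background against which the 7 calls among 16 stand. Without LACTB replicate 2, or without LACTB replicate 3, 1 of the 16 genes rose and 3 fell. Of all 11864 genes tested in these fits, 1115 rose and 1388 fell without LACTB replicate 2. Without LACTB replicate 3, 1213 rose and 1452 fell, so the shares over all tested genes were also lower. The median log2 fold change was 0.02 over the 6 tested laminin genes and -0.15 over the 10 tested integrin genes, against -0.01 over all tested genes. In bulk RNA, fewer cells expressing a gene and less of its RNA per cell cannot be told apart.

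**Figure D1:**
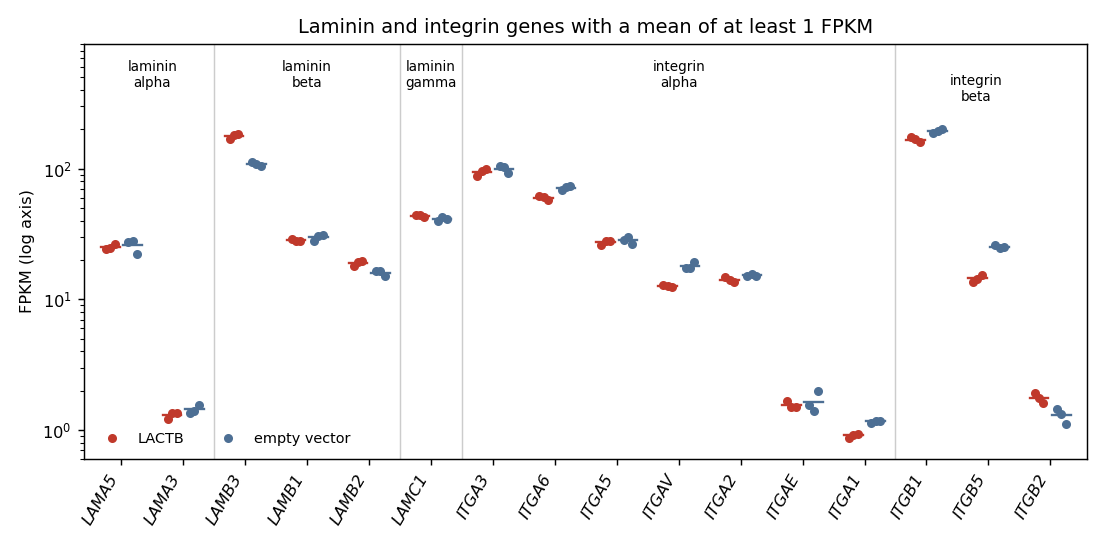
FPKM on a log axis of the 16 laminin and integrin genes that averaged 1 FPKM or more, grouped by chain class; points are libraries (3 LACTB, 3 empty vector) and short lines are group means. LAMB3 lies higher in LACTB, ITGB5 and ITGAV lower, and levels run from about 1 FPKM (LAMA3, ITGA1, ITGB2) to over 100 FPKM (LAMB3, ITGB1).

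Among laminin alpha chains, which carry the main integrin-binding domain, LAMA5 was the most abundant and did not pass the test. LAMA5 stood at 24.1, 24.8 and 26.4 FPKM in the LACTB libraries, against 27.6, 28.2 and 22.3 FPKM in the empty vector libraries. The groups overlapped because empty vector replicate 3 lay below every LACTB library; the log2 fold change was -0.04 with a 95% interval of -0.25 to 0.17 (limma, adjusted p = 0.758). Without that library the adjusted p of LAMA5 was 0.075. LAMA3, the alpha chain that pairs with LAMB3 in the laminin of epithelial basement membranes, was low in both groups, at 1.303 ± 0.0798 FPKM with LACTB and 1.44 ± 0.113 FPKM with empty vector (SD, n = 3 each; 95% interval of the log2 fold change -0.26 to 0.10; limma, adjusted p = 0.468). LAMA5 made up 92.5% ± 0.639 of the summed laminin alpha FPKM in LACTB cells and 91.2% ± 1.45 in empty vector cells.

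LAMB3 showed the largest rise among the tested laminin and integrin genes. LAMB3 (ENSG00000196878; GRCh38 chromosome 1, 209614870 to 209652466, minus strand) stood at 169, 182 and 184 FPKM in the LACTB libraries, against 113, 109 and 105 FPKM in the empty vector libraries. All LACTB libraries were above all empty vector libraries, a 1.64-fold difference of the means. On the log2 scale this was 0.71 with SE 0.051 (limma, adjusted p = 0.000131). The call held under all 15 alternative settings of the processing (other scalings, filters and tests, and each library left out), with an adjusted p of at most 0.00312.

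The other laminin gene that rose was LAMB2, a beta chain of muscle, nerve and kidney basement membranes. LAMB2 stood at 18.1, 19.3 and 19.8 FPKM in the LACTB libraries, against 16.4, 16.4 and 14.97 FPKM in the empty vector libraries. The groups were separate by a small margin, 1.19-fold in the means (limma log2 fold change 0.24 with SE 0.054, adjusted p = 0.0144), and the call was lost without LACTB replicate 2 (adjusted p = 0.0559) or LACTB replicate 3 (adjusted p = 0.0519). LAMB1 and LAMC1, the widely expressed beta and gamma chains, passed no threshold. LAMB1 averaged 28.3 ± 0.507 FPKM with LACTB and 29.8 ± 1.72 FPKM with empty vector, and LAMC1 43.7 ± 0.71 FPKM with LACTB and 41.0 ± 1.46 FPKM with empty vector (SD, n = 3 each). The 95% intervals of their log2 fold changes were -0.19 to 0.04 and -0.01 to 0.19 (limma, adjusted p = 0.311 and 0.137).

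LAMB3 made up 79.0% ± 0.649 of the summed laminin beta FPKM with LACTB and 70.4% ± 1.26 with empty vector. The share was higher in 3 of 3 LACTB libraries; the exact two-sided permutation p was 0.1, the smallest that 3 against 3 can give, and 0.167 after adjustment over the 15 shares computed. LAMB3 and its partner LAMA3 stood at unequal RNA levels: LAMB3 was 137 ± 2.23 times LAMA3 in LACTB libraries and 76.4 ± 8.69 times in empty vector libraries. These levels divide by the joined exons of all annotated transcripts of a gene, 14678 bases for LAMA3 and 4688 for LAMB3. Which transcripts were expressed was not tested, so the level of LAMA3 and the size of these ratios are uncertain.

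**Figure D2:**
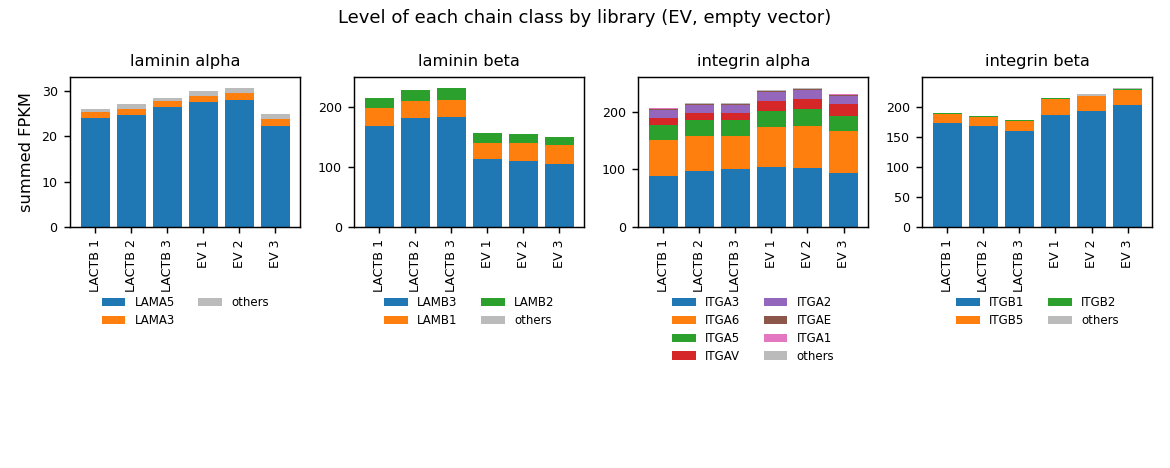
Summed FPKM of laminin alpha, laminin beta, integrin alpha and integrin beta genes in each library (3 LACTB, then 3 empty vector, EV), with colours for the genes of at least 1 FPKM and grey for the others; each panel has its own axis from 0. The laminin beta sum is higher in LACTB, mostly through LAMB3, and the integrin beta sum is lower.

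The promoter of LAMB3 is shown because LAMB3 had the largest rise, and short stretches of LAMA3 because it is the partner chain that had no call. RefSeq promoter windows on GRCh38.p14 were found for 26 of the 36 genes, 33 windows in all, and the 250 bases before each start were searched on both strands for the letters TGANTCA (AP-1 factors), GGAATG (TEAD factors), GGGCGG (GC box) and CACGTG (E-box); in the printed stretches no match overlaps another, and GC boxes are left in lower case. TGANTCA occurred in 2 of the 33 windows, 1 of LAMB3 and 1 of LAMA3, and in 6.57% of all 35116 windows. A match is a run of letters and not a site known to be used. The LAMB3 stretch below is chr1:209651395-209651624, minus strand, from the window of the most downstream of its 3 RefSeq starts. It is the part outside annotated exons of LAMB3, with exons of other genes not looked at. Its AP-1 match begins 67 bases before the start, and the windows of the other 2 LAMB3 starts hold 0 such matches. The LAMA3 stretches are chr18:23872885-23872911 and chr18:23872941-23872967, plus strand. Their matches begin 125 and 69 bases before the only LAMA3 start with a window, at 23873020. This start lies inside the gene, which begins at 23689443, and the first start of the gene was not searched. In this LAMA3 window 180 of the 250 bases lie in LAMA3 exons, unlike the LAMB3 stretch. All stretches are 5′ to 3′ with the AP-1 match in capitals.
LAMB3 promoter: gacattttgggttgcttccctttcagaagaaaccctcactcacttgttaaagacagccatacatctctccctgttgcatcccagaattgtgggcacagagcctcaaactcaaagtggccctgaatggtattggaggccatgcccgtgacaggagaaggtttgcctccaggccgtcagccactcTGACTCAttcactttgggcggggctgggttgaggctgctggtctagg
LAMA3 first match: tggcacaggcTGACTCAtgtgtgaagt
LAMA3 second match: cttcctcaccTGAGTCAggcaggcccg
LAMB3 rose and LAMA3 passed no threshold, and a part of the AP-1 letters in either result was not tested.

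Of the integrin subunits that bind laminins, ITGA6 and ITGB1 fell and ITGA3 did not pass the test. ITGB1, the common beta subunit that pairs with ITGA1, ITGA2, ITGA3, ITGA5, ITGA6, ITGAV and others, was the most abundant integrin RNA. ITGB1 stood at 173, 168 and 159.9 FPKM in the LACTB libraries, against 186, 193 and 202 FPKM in the empty vector libraries. The groups did not overlap and the mean was 1.159-fold lower with LACTB (limma log2 fold change -0.21 with SE 0.051, adjusted p = 0.0185). The call was lost without LACTB replicate 2 (adjusted p = 0.0659) or LACTB replicate 3 (adjusted p = 0.0673), and after TPM scaling (adjusted p = 0.136). ITGA6 stood at 61.6, 60.5 and 58.0 FPKM with LACTB, against 68.8, 72.0 and 73.5 FPKM with empty vector. The groups were separate, 1.19-fold lower with LACTB (limma log2 fold change -0.25 with SE 0.044, adjusted p = 0.00591; 0.0602 after TPM scaling).

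ITGA3, the other main laminin-binding alpha subunit, was the most abundant alpha subunit in both groups. It averaged 94.8 ± 5.83 FPKM with LACTB and 99.8 ± 5.86 FPKM with empty vector (SD, n = 3 each), the groups overlapped, and the 95% interval of the log2 fold change was -0.22 to 0.07 (limma, adjusted p = 0.412). ITGB4, the beta subunit that joins ITGA6 in hemidesmosomes, the anchoring junctions of epithelia, was close to absent at 0.191 ± 0.0211 FPKM with LACTB and 0.184 ± 0.0454 FPKM with empty vector, from 69 and 67 reads summed over each group. ITGA6 RNA was thus 317 ± 41.4 times ITGB4 RNA with LACTB and 402 ± 87.0 times with empty vector. ITGA7, the laminin receptor of muscle, lay at 0.131 to 0.251 FPKM with LACTB and 0.0958 to 0.143 FPKM with empty vector. LAMB3 was higher in the libraries in which ITGA6 and ITGB1 were lower.

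Among the tested laminin and integrin genes, the subunits of the vitronectin receptor, ITGB5 and ITGAV, fell most. ITGB5, which pairs with ITGAV to bind vitronectin (ENSG00000082781; GRCh38 chromosome 3, 124761948 to 124901418, minus strand), stood at 13.7, 14.3 and 15.5 FPKM in the LACTB libraries, against 26.0, 24.5 and 25.2 FPKM in the empty vector libraries. The highest LACTB library was far below the lowest empty vector library, and the means differed 1.74-fold (limma log2 fold change -0.76 with SE 0.053, adjusted p = 0.000109). Its partner ITGAV, the alpha subunit shared by the receptors that recognise arginine-glycine-aspartate motifs (ENSG00000138448; chromosome 2, 186590065 to 186680901, plus strand), stood at 12.8, 12.6 and 12.5 FPKM with LACTB, against 17.3, 17.5 and 19.4 FPKM with empty vector. It was 1.43-fold lower with LACTB in the means, with no overlap (limma log2 fold change -0.48 with SE 0.052, adjusted p = 0.000807). The calls of ITGB5 and ITGAV held under all 15 alternatives, with adjusted p of at most 0.00227 and 0.0105. ITGB5 made up 7.87% ± 0.743 of the summed integrin beta FPKM with LACTB and 11.4% ± 0.614 with empty vector, and ITGB1 90.6% ± 0.792 with LACTB and 87.2% ± 0.56 with empty vector. Each of these shares did not overlap between the groups (exact two-sided permutation p = 0.1, the smallest possible; 0.167 adjusted over 15 shares).

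ITGA5, which with ITGB1 forms the main fibronectin receptor, averaged 27.3 ± 0.965 FPKM with LACTB and 28.2 ± 1.598 FPKM with empty vector (SD, n = 3 each). These groups overlapped (95% interval of the log2 fold change -0.17 to 0.08; limma, adjusted p = 0.564). ITGB8, whose pair with ITGAV binds and activates latent TGF-beta, had a mean under 1 FPKM and was not tested in the main comparison. ITGB8 stood at 0.317, 0.334 and 0.334 FPKM in the LACTB libraries, against 0.866, 1.04 and 1.23 FPKM in the empty vector libraries, from 265 and 851 reads summed over each group. The ratio of the means was 3.18-fold, lower with LACTB and with no overlap, and the gene passed the test when no filter on low values was used (limma log2 fold change -0.62 with SE 0.093, adjusted p = 0.0153), where 4.58% of 30629 genes fell. ITGB3 averaged 0.425 ± 0.114 FPKM with LACTB and 0.549 ± 0.176 FPKM with empty vector, ITGB6 lay at up to 0.0372 FPKM, ITGA2B, the platelet subunit, at up to 0.0717 FPKM, and ITGA8 was at 0 in every library. An overlapping annotated gene shares 51.6% of the exon bases of ITGB3, so its level is uncertain. Among the beta subunits known to pair with ITGAV, ITGB1 and ITGB5 exceeded 1 FPKM on average over the 6 libraries. The others did not by their listed values, of which that of ITGB3 is uncertain.

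**Figure D3:**
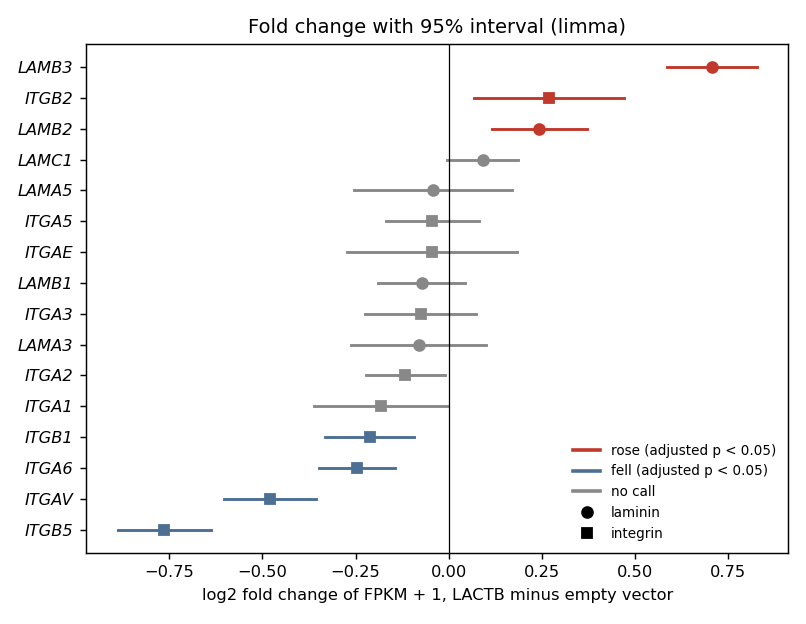
Log2 fold change of FPKM + 1 (LACTB minus empty vector) of the 16 tested genes with 95% intervals from limma; circles are laminins, squares integrins, colours mark genes that rose, fell or had no call at an adjusted p of 0.05. LAMB3 (0.71) leads the rises, ITGB5 (-0.76) and ITGAV (-0.48) the falls.

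Promoter stretches of ITGAV and of ITGB5 and ITGB1, beta subunits that each pair with it, are given for comparison, since all 3 genes fell. They are from RefSeq on GRCh38.p14 and lie outside annotated exons of the same gene, with exons of other genes not looked at. ITGB5 is chr3:124887366-124887599, minus strand (the most downstream of 3 starts), ITGAV is chr2:186589806-186590055, plus strand (the more upstream of 2 starts), and ITGB1 is chr10:32958233-32958480, minus strand (the more upstream of 2 starts). All are 5′ to 3′, and capitals mark a match to GGAATG, the TEAD letters.
ITGB5 promoter: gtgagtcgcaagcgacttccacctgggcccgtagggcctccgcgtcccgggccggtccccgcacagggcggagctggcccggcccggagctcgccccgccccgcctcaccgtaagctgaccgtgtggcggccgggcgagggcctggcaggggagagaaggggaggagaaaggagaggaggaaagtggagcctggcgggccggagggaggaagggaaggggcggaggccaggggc
ITGAV promoter: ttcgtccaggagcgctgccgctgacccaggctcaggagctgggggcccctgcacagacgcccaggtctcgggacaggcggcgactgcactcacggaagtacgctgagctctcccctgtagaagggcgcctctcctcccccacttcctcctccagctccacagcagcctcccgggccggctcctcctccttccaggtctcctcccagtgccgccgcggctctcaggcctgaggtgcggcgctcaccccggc
ITGB1 promoter: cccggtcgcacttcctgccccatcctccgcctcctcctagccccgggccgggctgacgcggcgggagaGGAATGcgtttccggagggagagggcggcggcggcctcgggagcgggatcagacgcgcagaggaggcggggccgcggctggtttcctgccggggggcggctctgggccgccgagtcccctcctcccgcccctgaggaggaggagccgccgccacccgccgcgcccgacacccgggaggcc
ITGB1 held the TEAD letters once, beginning 182 bases before this start and with 0 matches at its other start, and the ITGB5 and ITGAV windows held neither them nor TGANTCA. Of the 33 windows, 4 held GGAATG (1 each of ITGB1, ITGA5, ITGA10 and LAMA2), as did 11.9% of all windows. GGGCGG was in 17 of the 33 windows and in 42.6% of all windows, and CACGTG in 1 of the 33, of ITGA6, and in 6.34% of all windows.

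The collagen receptors passed no threshold. ITGA2 stood at 14.7, 14.0 and 13.5 FPKM with LACTB, against 15.2, 15.8 and 15.1 FPKM with empty vector, and its neighbour ITGA1, 30115 bases away on chromosome 5, at 0.872, 0.917 and 0.937 FPKM with LACTB, against 1.14, 1.18 and 1.18 FPKM with empty vector. In both genes all LACTB libraries were below all empty vector libraries, yet the 95% intervals of the log2 fold change were -0.22 to -0.01 for ITGA2 and -0.36 to -0.0025 for ITGA1 and the adjusted p was 0.0903 and 0.114 (limma). Of the 16 tested genes, 4 had all LACTB libraries above and 6 all below the empty vector libraries, where 22.3% and 25.1% of all tested genes did, 47.4% in either direction. ITGA1 passed the threshold with voom on recovered reads (limma, adjusted p = 0.0057) and without the variance trend (adjusted p = 0.0188). PELO, at 13.6 FPKM with LACTB and 11.8 FPKM with empty vector, shares 2.56% of the exon bases of ITGA1 on the same strand. ITGA10 and ITGA11, the other collagen-binding subunits, lay under 0.22 and 0.05 FPKM in every library.

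Leukocyte integrins were near or under the limit of 1 FPKM. ITGB2, the beta subunit of the leukocyte integrins, stood at 1.91, 1.76 and 1.62 FPKM in the LACTB libraries, against 1.44, 1.33 and 1.12 FPKM in the empty vector libraries. The groups did not overlap and the ratio was 1.36-fold, but the call rested on the margin (limma log2 fold change 0.27 with SE 0.086, adjusted p = 0.0499) and was lost when any 1 library was left out (adjusted p 0.0566 to 0.139). Its antisense partner ITGB2-AS1 averaged 0.805 FPKM with LACTB and 0.847 FPKM with empty vector, and shares 4.46% of the exon bases of ITGB2. The alpha subunits that pair with ITGB2 were at or close to 0: ITGAL had 0 reads in every library, ITGAM had 4 reads over the LACTB libraries and 2 over the empty vector libraries, and ITGAX lay at 0.271 to 0.375 FPKM with LACTB and 0.226 to 0.289 FPKM with empty vector. The 7 leukocyte markers that are not integrins summed to 0.17 to 0.383 FPKM with LACTB and 0.19 to 0.295 FPKM with empty vector, with CD3E at 0 in every library. ITGAE, the subunit that binds E-cadherin, averaged 1.55 ± 0.105 FPKM with LACTB and 1.65 ± 0.295 FPKM with empty vector (limma, adjusted p = 0.757), while its only known partner ITGB7 lay at 0.0778 to 0.199 FPKM with LACTB and 0.0507 to 0.209 FPKM with empty vector. ZNF740 shares 42.1% of the exon bases of ITGB7 on the other strand, and HASPIN, at 6.14 FPKM with LACTB and 7.11 FPKM with empty vector, 6.41% of those of ITGAE; the use of strand in counting is not given in the sources used here.

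In all, 20 of the 36 genes had a mean under 1 FPKM and 10 of these were at 0.1 FPKM or more. Of those 10, ITGB8 and LAMA4 were lower in all LACTB libraries and LAMA1 higher, where 7.66% of the 8044 genes at that level were lower, 12.0% higher and 19.6% either. LAMA4, the alpha chain of vessel basement membranes, stood at 0.367, 0.517 and 0.331 FPKM with LACTB, against 0.683, 0.800 and 0.753 FPKM with empty vector, 1.84-fold lower with LACTB in the means, which did not pass the test without a filter (limma, adjusted p = 0.0878). LAMA1, the alpha chain of the early embryo, stood at 0.216, 0.223 and 0.245 FPKM with LACTB, against 0.168, 0.167 and 0.171 FPKM with empty vector (limma without a filter, adjusted p = 0.335). LAMA2, the alpha chain of muscle, overlapped between the groups at 0.0644 to 0.152 FPKM with LACTB and 0.128 to 0.170 FPKM with empty vector. Genes under 0.1 FPKM but not at 0 everywhere were LAMB4, ITGB6, ITGA2B, ITGA9, ITGA11 and ITGAM, with at most 15 reads summed over a group. LAMC3, ITGA4, ITGA8 and ITGAL had 0 reads in all 6 libraries; 3 reads, the limit that a count of 0 allows, would be 0.0209 to 0.0269 FPKM in these genes, and this limit covers counting error only.

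**Figure D4:**
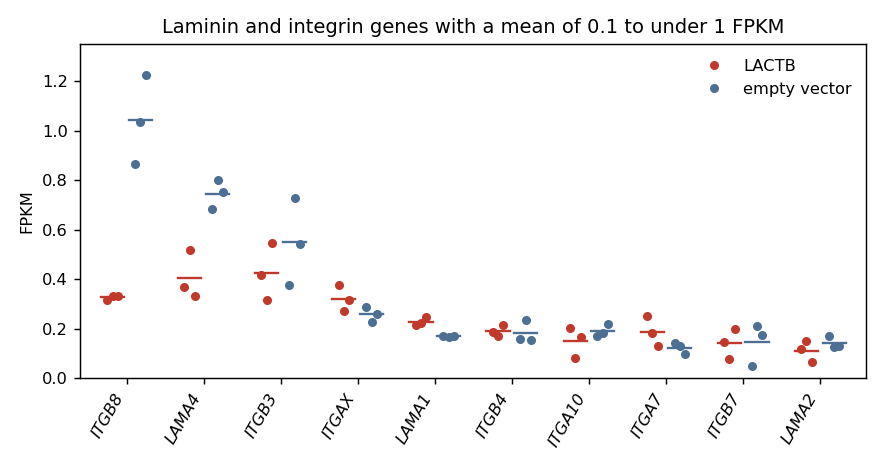
FPKM of the 10 laminin and integrin genes with a mean of 0.1 to under 1 FPKM; points are libraries (3 LACTB, 3 empty vector) and short lines are group means. ITGB8 and LAMA4 are lower in all LACTB libraries, LAMA1 is higher, and the other genes overlap between the groups.

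The other adhesion genes were read from 7 lists of laminin receptors, basement membrane partners, integrin ligands, adaptors, surface partners, hemidesmosome genes and laminin-processing proteases. Of their 135 genes, 86 were tested, of which 14 rose, 28 fell and 44 passed no threshold, and the median of their log2 fold changes was -0.07, against -0.01 over all tested genes. The rises and falls were 16.3% and 32.6% of the tested list genes, against 14.8% and 17.2% of all tested genes.

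Basement membrane partners of laminin had 5 falls and 0 rises among the 8 tested of 18 listed genes, with a median of -0.29. The falls were 62.5% of the tested genes, where 17.2% of all tested genes fell and 14.8% rose. COL4A1, a chain of the collagen network that lies beside the laminin sheet, averaged 9.56 ± 0.21 FPKM with LACTB and 15.8 ± 0.165 FPKM with empty vector (limma log2 fold change -0.67 with SE 0.038, adjusted p = 4.78e-05). NID1, the nidogen that links laminin to that collagen, averaged 15.9 ± 0.383 FPKM with LACTB and 25.3 ± 0.823 FPKM with empty vector (log2 fold change -0.64; limma, adjusted p = 8.74e-05). Both were lower in 3 of 3 LACTB libraries, while LAMB3 was higher in the same libraries. Of the laminin receptors that are not integrins, 2 of 9 tested genes rose and 2 fell, 22.2% each, near the shares over all tested genes. SDC4, a syndecan of focal adhesions, rose to 92.8 ± 1.34 FPKM with LACTB, against 66.1 ± 4.16 FPKM with empty vector, whereas DAG1, dystroglycan, fell to 20.5 ± 0.613 FPKM with LACTB, against 28.9 ± 2.66 FPKM with empty vector, and SDC3 fell to 7.12 ± 0.362 FPKM with LACTB, against 10.2 ± 0.532 FPKM with empty vector (limma, adjusted p at most 0.00268). SDC2 also rose (2.14 ± 0.299 FPKM with LACTB and 1.45 ± 0.0712 FPKM with empty vector; limma, adjusted p = 0.021), a call lost without LACTB replicate 1 or 2 or empty vector replicate 1 or 2 (adjusted p 0.0566 to 0.0699).

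Ligands of integrins other than laminin went both ways, 4 up and 5 down among 12 tested genes. These were 33.3% and 41.7%, against 14.8% and 17.2% of all tested genes. ICAM1, the ligand of the ITGB2 integrins, rose 2.20-fold to 18.9 ± 1.62 FPKM with LACTB, against 8.57 ± 0.233 FPKM with empty vector. TNC, tenascin C, rose 2.01-fold to 102 ± 0.574 FPKM with LACTB, against 50.9 ± 1.91 FPKM with empty vector, while CTGF and CYR61, matrix proteins that bind ITGAV integrins, were 2.57-fold and 1.89-fold lower (limma, adjusted p at most 6.38e-05 for these 4 genes).

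Among 37 tested integrin adaptors and signalling genes 4 rose, 10 fell and 23 passed no threshold, with a median of -0.02. The rises and falls were 10.8% and 27.0%, against 14.8% and 17.2% of all tested genes. FERMT3, the kindlin of blood cells, rose 2.06-fold to 5.17 ± 0.0582 FPKM with LACTB, against 2.52 ± 0.286 FPKM with empty vector. FLNA, filamin A, which binds beta subunit tails, rose 1.31-fold to 162 ± 4.40 FPKM with LACTB, against 124 ± 11.1 FPKM with empty vector. VCL, vinculin, fell to 30.8 ± 0.317 FPKM with LACTB, against 38.5 ± 2.14 FPKM with empty vector, and RAPGEF1, an activator of the integrin regulator RAP1A, to 11.1 ± 0.0582 FPKM with LACTB, against 13.4 ± 0.128 FPKM with empty vector (limma, adjusted p at most 0.006 for the 4 genes). Talin (TLN1) stood at 41.4 to 43.0 FPKM with LACTB and 42.3 to 46.3 FPKM with empty vector (limma, adjusted p = 0.23). The count of adaptors that fell was 5 of 37 without LACTB replicate 2 or with a replicate block. It was 6 of 41 as TPM and 6 of 42 with no filter on low values. Over all tested genes, falls were 1388 of 11864 without LACTB replicate 2 and 1324 of 11875 with the block. They were 1295 of 16070 as TPM and 1403 of 30629 with no filter. The share over all tested genes was thus also lower in these settings.

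Among 13 tested surface partners, 3 rose and 5 fell, 23.1% and 38.5%, against 14.8% and 17.2% of all tested genes. SLC3A2, the CD98 heavy chain that binds beta subunit tails and also carries amino acid transporters, rose 2.94-fold to 95.7 ± 5.72 FPKM with LACTB, against 32.6 ± 1.18 FPKM with empty vector, and PLAUR, the urokinase receptor, 1.301-fold, while CAV1, caveolin, and CD47, a partner of ITGAV receptors, were 1.41-fold and 1.38-fold lower (limma, adjusted p at most 0.00519). The count of surface partners that fell was 3 of 13 without LACTB replicate 1, 2 or 3 or empty vector replicate 1. It was 3 of 17 with no filter on low values. Over all tested genes, falls were 1614 of 11855, 1388 of 11864 and 1452 of 11864 without LACTB replicate 1, 2 and 3. They were 1537 of 11898 without empty vector replicate 1 and 1403 of 30629 with no filter. In the hemidesmosome list, COL17A1 fell to 5.45 ± 0.157 FPKM with LACTB, against 7.05 ± 0.0967 FPKM with empty vector (limma, adjusted p = 0.00196). ERBIN rose 1.13-fold (limma, adjusted p = 0.0162, and 0.0566 without empty vector replicate 1 and 0.0658 without LACTB replicate 2). These were 1 fall and 1 rise among 5 tested genes, 20% each, near the shares over all tested genes. None of the 3 tested laminin-processing proteases (BMP1, MMP2 and MMP14) passed the threshold in limma, with adjusted p of 0.0748 to 0.468.

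**Figure D5:**
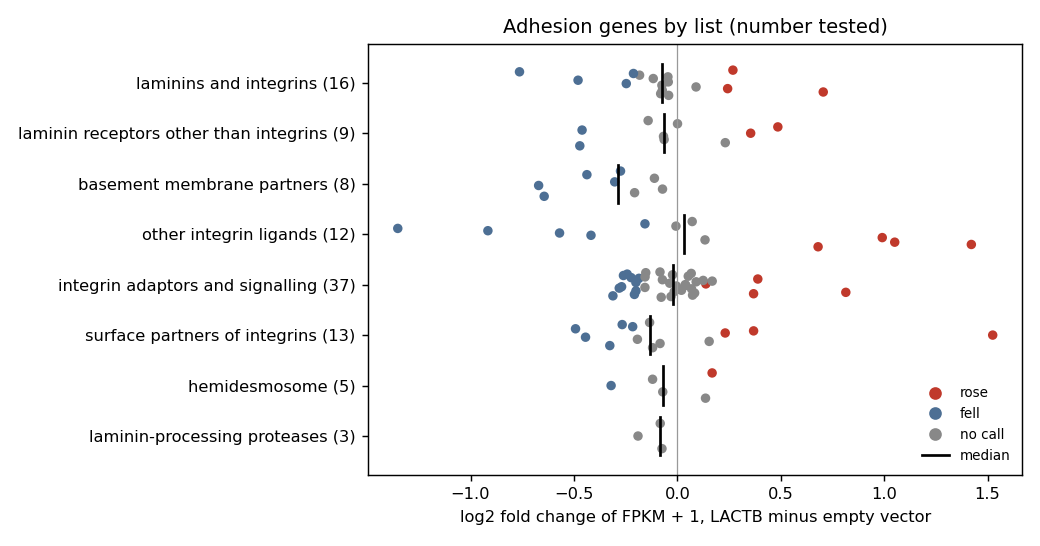
Log2 fold change of FPKM + 1 (LACTB minus empty vector) of each tested gene by list, with the number tested in brackets; colours mark genes that rose, fell or had no call, and black bars are list medians. All 8 tested basement membrane partners, of 18 listed, lie below 0 (median -0.29), while the ligand list reaches far to both sides.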

How the data were processed

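RNA of 6 libraries was sequenced as 150 bp paired-end reads, per the labels' protocols. The authors deposited FPKM values of 58735 genes per library. The submitters' processing notes name the aligner HISAT2 (2.0.5), the counter featureCounts (1.5.0-p3), DESeq2 (1.16.1) and the build GRCh38 (hg38). The annotation release and the use of strand were not stated. All gene IDs matched GENCODE 29, whose exon lengths turned 100% of the FPKM values above 0 into whole reads (tolerance 0.1 reads), and these gave the depths. No column was left unused.

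The test was limma 3.58.1 in R 4.3.3 on log2(FPKM + 1) with a variance trend, two-sided, over genes that averaged 1 FPKM or more. Fold changes are on that scale, which understates changes of low genes; ratios are of mean FPKM. The fit was also run on simulated read counts as a check of the code. Spread was set equal in all simulated libraries and none stood apart from its group. That run therefore gives no error rate for the real libraries.

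Other settings tried were 0.1 as pseudocount, all genes unfiltered, a minimum average of 5 FPKM, scaling as TPM, by median of ratios or by quantiles, no variance trend, a replicate block, voom on recovered reads, and each library left out. Members and lists were chosen with earlier results of these data known. Of the 37 genes of the rule, 1 is not reported here and enters no count or sum. Every other member is named, and each related list gives up to 2 risen and 2 fallen genes with the smallest p. TLN1 and the proteases were named after their values were seen. Samples were grouped by their labels.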

Additional observations from a re-analysis of the deposited data

How the results depend on the processing

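LAMB3, ITGB5 and ITGAV kept their direction and their side of the threshold in all 15 alternatives, and no gene that passed the test changed sign. ITGAE, LAMA5 and ITGA5, which passed no threshold, had log2 fold changes of up to 0.04, 0.02 and 0.01 under some alternatives, against -0.05, -0.04 and -0.04. The number of laminin and integrin genes that rose, 3, was 1 to 2 when 1 library was left out, and the number that fell, 4, was 3 to 4. Over all tested genes, 1758 of 11875 rose, against 1155 of 6980 at a mean of at least 5 FPKM. With 1 library left out, 1115 to 1505 rose, of 11855 to 11898 tested. Falls numbered 2038 of 11875, against 1295 of 16070 as TPM and 1388 to 1800 with 1 library left out. The number of genes tested thus differed between these settings, so the counts are not on 1 base. Same-numbered libraries did not deviate together (Pearson's r across genes of their deviations from the group means -0.126, 0.0194 and -0.0438 for replicates 1, 2 and 3), so the numbers were not taken as pairs; with the replicate block 1 laminin and integrin gene rose and 3 fell, and 1155 of all genes rose and 1324 fell. ITGB1, LAMB2 and ITGB2 were lost under 6, 3 and 10 alternatives. The adjusted p of ITGB1 ran from 0.00689 to 0.136, that of LAMB2 from 0.000582 to 0.0559 and that of ITGB2 from 0.00408 to 0.144. LAMC1 passed with voom on recovered reads (adjusted p = 0.0454). The LAMB3 and ITGB5 shares differed by 8.09 to 9.30 and -3.91 to -3.16 percentage points with 1 library left out. Depth limits the genes under 0.1 FPKM, which had at most 15 reads in a group.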
